A study of Drosophila melanogaster with 20 samples.

Results

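The genes described here are 39 genes of the fly synapse, chosen by symbol and by what they do, with no measured value in the rule. They were chosen with earlier results of these data known. They comprise 10 genes of vesicle release, 3 of the active zone, 6 of vesicle recycling, 5 that make or load transmitter, 6 of adhesion and scaffold, and 9 transmitter receptors. All 39 symbols were found among the 17609 genes of the count table, and 37 had reads. The other 2, stnA and stnB, were at 0 in every sample.

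RNA was sequenced from whole heads of 1-week-old, unmated flies, 10 heads to a sample, with 5 samples in each of 4 groups: red-eyed males, white-eyed males, red-eyed females and white-eyed females. The white gene (w) encodes a transporter that carries pigment precursors into the pigment granules within cells of the eye. All flies had the w1118 background, and w- flies carried the w1118 allele, a partial deletion. The w+ flies carried a wild-type allele of the Harwich strain that had been crossed into w1118 for 10 generations, so w+ females had 1 working copy beside w1118 and w+ males had their only copy. This is 1 donor allele in 1 recipient line, and neighbouring Harwich sequence on the X chromosome may have come with it. The labels number the samples of a group from 1 to 5 and do not say whether they came from separate cultures, so each p-value measures the spread between these pools of heads.

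Synaptic vesicles fuse with the membrane when SNARE proteins zip together under the control of a calcium sensor, at active zones where calcium channels are held near the vesicles, and the vesicle membrane is then taken back by endocytosis and refilled. In the fly brain acetylcholine is the main fast excitatory transmitter and GABA the main fast inhibitory one, while glutamate is the transmitter of motor neurons. A whole head also holds photoreceptors, glia, fat body, muscle and blood cells. In bulk RNA, fewer cells of a type and less RNA per cell cannot be told apart.

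The libraries held 34211100 to 48866963 reads on genes. The count of w was 374 to 509 in w+ males against 8 to 15 in w- males, and 481 to 688 in w+ females against 4 to 15 in w- females, as labelled. The yolk protein genes Yp1, Yp2 and Yp3 took 4.21% to 12.2% of the reads in females and 0.00324% to 0.00660% in males, and levels below are therefore given as CPM, each gene's count as a share of the library size after TMM scaling, which sets that size by the bulk of genes rather than by the total alone. The 37 genes took a median share of all reads of 1.70% in red-eyed and 1.88% in white-eyed males, and of 1.22% in red-eyed and 1.43% in white-eyed females. Within groups several libraries ran high or low for many of these genes, 3 of them most often. Replicate 2 of the w+ males was the highest of its 5 for 33 of the 37, replicate 5 of the w+ females was the highest for 32, and replicate 4 of the w+ females was the lowest for 26. Replicate 4 of the w+ males was the lowest for 24. In w- females replicate 5 was the highest for 23 and replicate 4 the lowest for 18. Counts of called genes are given with and without the first 3, as are the eye color differences of genes given by sample that moved by over 1.5 times.

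Levels per exon length, in CPM per kb of exon, spanned 2.38 for Nlg1 to 367 for nSyb as means of all 20 samples. The release genes nSyb and cpx were the highest of the 37 by that mean. The vesicle SNARE nSyb averaged 394 CPM per kb in w+ males, and its partners in the membrane, Snap25 and Syx1A, averaged 182 and 80.2. The fusion clamp complexin (cpx) averaged 229 CPM per kb and the calcium sensor Syt1 164. unc-13, which primes vesicles for fusion, was the lowest of the release genes at 34.1 CPM per kb. The length is that of all annotated exons together, 22598 bp for unc-13, the longest of the 37. In CPM alone unc-13 measured 770, and Rop was the lowest release gene at 252. The active zone genes lay close together: the scaffold genes brp and Rim averaged 31.0 and 27.0 CPM per kb in w+ males and the calcium channel gene cac 35.0.

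In vesicle recycling, shi, the fly dynamin, averaged 111 CPM per kb in w+ males and EndoA (endophilin) 95.7. The clathrin adaptor subunit AP-2alpha averaged 41.3 and the phosphatase Synj 34.0. Gad1, the GABA-making enzyme, was the highest of the transmitter genes at 174 CPM per kb, above its vesicular transporter VGAT at 25.8, the lowest of that group. ChAT, which makes acetylcholine, averaged 32.3 CPM per kb, its vesicular transporter VAChT 45.8, and the glutamate transporter VGlut 32.9. ChAT and VAChT share 606 bp of exon on the same strand, 15.1% of the exon length of ChAT and 8.54% of that of VAChT, and STAR counts a read that fits both genes for neither, so reads there are missing from both levels.

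Among receptors the nicotinic subunit nAChRbeta1 was the highest at 165 CPM per kb in w+ males, followed by the GABA-gated chloride channel Rdl at 111. The nicotinic subunits nAChRalpha6, nAChRalpha7, nAChRalpha5 and nAChRalpha1 averaged 62.8, 52.7, 28.7 and 13.6. The glutamate receptor genes Nmdar1, GluRIA and Nmdar2 averaged 16.7, 10.2 and 9.88. Of the adhesion genes, the presynaptic neurexin Nrx-1 averaged 36.6 CPM per kb and the scaffold gene dlg1 35.2. The neuroligins, postsynaptic partners of neurexin, were lower, with Nlg2 at 20.7, Nlg3 at 10.1 and Nlg1 at 2.21, and Nlg4 averaged 6.08 in w- males.

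**Figure D1:**
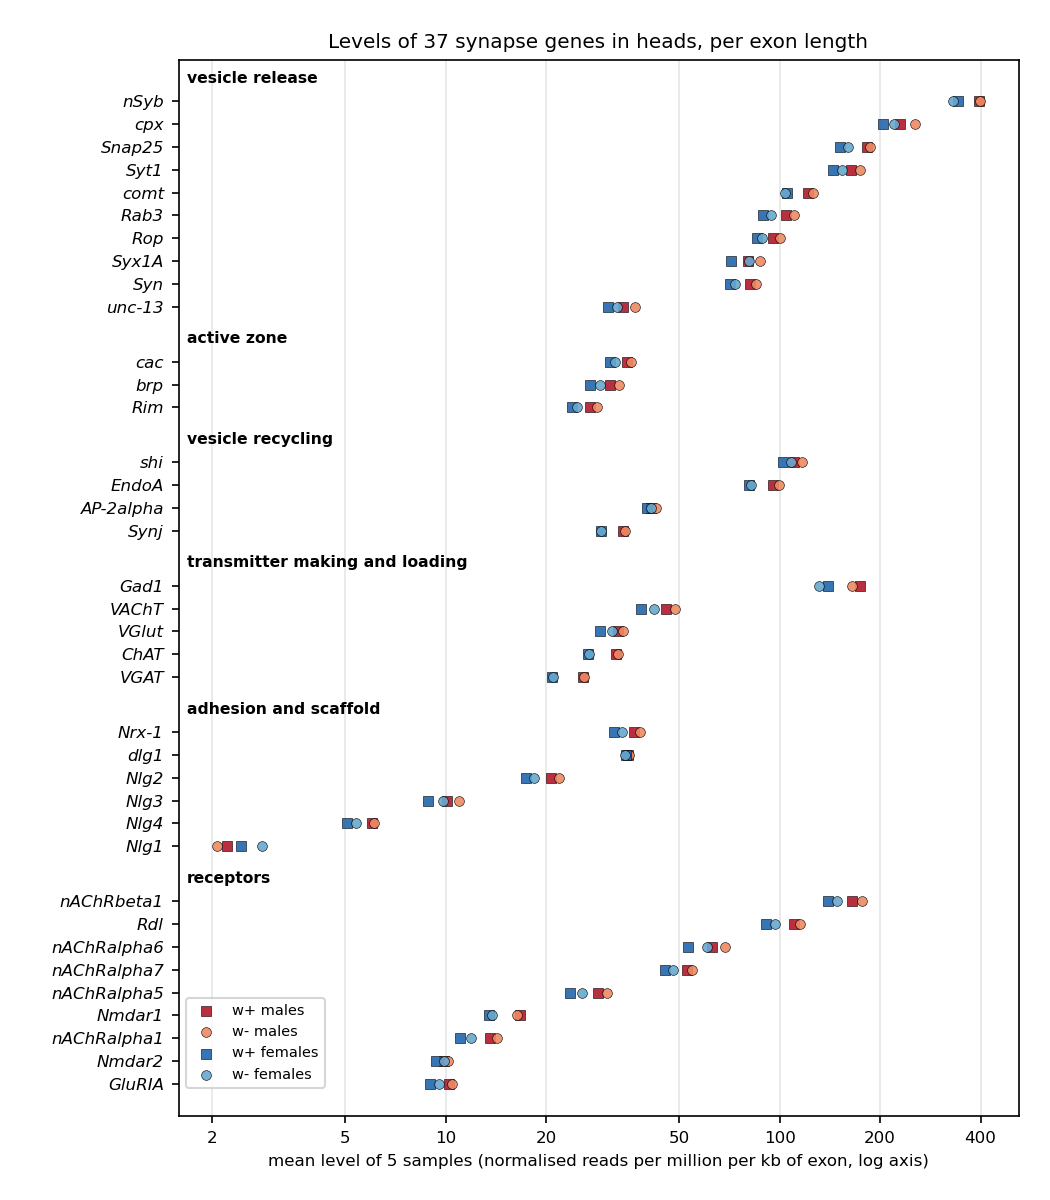
Mean level of each of the 37 synapse genes in the 4 groups (n = 5 samples each), as CPM per kb of exon on a log axis, ordered by role. The order of the genes spans from Nlg1 at 2.38 to nSyb at 367 as means of all 20 samples, and for most genes the 2 female groups lie to the left of the 2 male groups.

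The first comparison asked whether synapse genes differ between white-eyed and red-eyed heads. In males, 0 of 37 passed the test (edgeR quasi-likelihood, replicate number as block, Benjamini-Hochberg adjusted p under 0.05), against 12.7% of the 11187 genes tested. Of the same 11187 genes, 4.64% were called higher with white eyes and 8.06% were called lower. DESeq2 called 1, cpx, against 1360 of the 11187 genes. An unadjusted edgeR p under 0.05 was found for 3 of the 37, against 2959 of the 11187. In females, 2 of 37 were called, nAChRalpha6 and Nlg3, both higher in w-, against 9.23% of the 10762 genes tested, 4.72% higher and 4.51% lower. DESeq2 called the same 2 in females, against 788 of the 10762 genes called higher and 916 lower. An unadjusted edgeR p under 0.05 was found in females for 6 of the 37, against 3455 of the 10762. The median log2 difference of the 37 was 0.05 in males, where that of all genes was 0.00, and 0.08 in females, where that of all genes was -0.0036. The log2 difference was above 0 for 32 of 37 in each sex, and for 29 in both, against 50.3% of all genes in males and 48.9% in females. Single changes ran from -6.97% to 11.2% in males and from -5.82% to 14.5% in females, and the 95% intervals of all 37 lay between -0.28 and 0.27 on the log2 scale in males and between -0.21 and 0.43 in females. In 0 of 37 did every w- sample lie above every w+ sample, in either sex, against 5.57% of all genes in males and 3.85% in females.

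**Figure D2:**
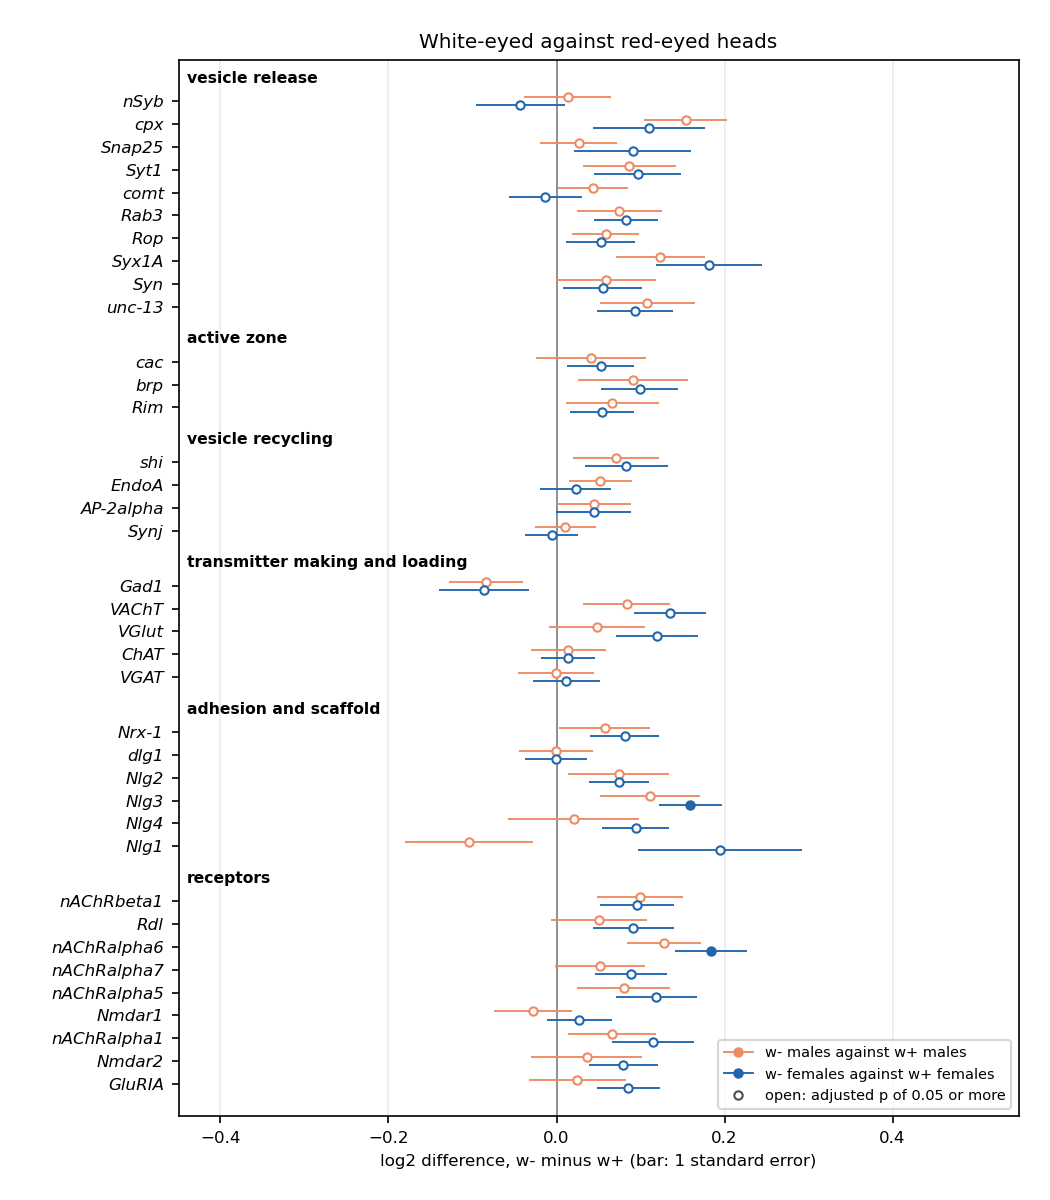
Difference between white-eyed and red-eyed heads (log2, w- minus w+, bar 1 standard error, 5 samples against 5 in each sex) for the 37 synapse genes, by role. Filled points, nAChRalpha6 and Nlg3 in females, passed an adjusted p of 0.05, and 32 of 37 points lie above 0 in each sex.

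nAChRalpha6 (FBgn0032151, chromosome 2L, 9793317 to 9886250 in the release 6 assembly, as for all positions here) encodes a nicotinic subunit known in flies as the target of spinosyn insecticides. In replicate order it measured 394, 421, 402, 403 and 454 CPM in w+ females and 443, 455, 491, 462 and 502 in w- females. The ranges overlap only through replicate 5 of the w+ females. The difference was 13.6%, or 0.18 ± 0.04 on the log2 scale (SE), with an adjusted p of 0.046. In males the values were 482, 539, 478, 465 and 477 in w+ and 532, 537, 542, 525 and 539 in w-, so that w+ replicate 2 alone reached the w- range. The male log2 difference was 0.13 ± 0.04 (SE), with an adjusted p of 0.10.

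Nlg3 (FBgn0083963, chromosome 3R, 7570281 to 7639434) encodes a neuroligin. It measured 53.9, 57.0, 62.2, 52.5 and 68.0 CPM in w+ females and 60.3, 63.0, 65.4, 63.2 and 75.4 in w- females. The groups overlap, with replicate 5 the highest in both. The log2 difference was 0.16 ± 0.04 (SE, adjusted p = 0.047). In males Nlg3 measured 64.1, 77.6, 62.9, 62.1 and 69.4 in w+ and 73.9, 71.4, 69.2, 75.1 and 73.7 in w-, a log2 difference of 0.11 ± 0.06 (SE, adjusted p = 0.28). Neither female call held without the replicate block or with all genes of at least 1 count in the table. Neither held with any replicate number left out. Each of these settings left 0 of 37 called. Both genes were called by DESeq2 with the block, with adjusted p of 0.0026 for nAChRalpha6 and 0.030 for Nlg3. Both were also called by edgeR with DESeq2 size factors, with library size alone, and with at least 10 counts in every sample. The log2 differences stayed near their size, from 0.16 to 0.20 for nAChRalpha6 and from 0.12 to 0.18 for Nlg3 with single replicate numbers left out, and at 0.18 and 0.16 without the block. Without replicate 4 or replicate 5 of the w+ females the count was also 0, and the median log2 difference of the 37 was 0.06 and 0.10. The block then gives the w- female sample of that number no weight, so these fits nearly repeat those without number 4 or 5.

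Complexin had the smallest p of the 37 in males. cpx measured 2558, 2905, 2437, 2565 and 2589 CPM in w+ males and 2936, 2927, 2778, 2893 and 3022 in w- males, a log2 difference of 0.15 ± 0.05 (SE, adjusted p = 0.080). In females it measured 2317, 2221, 2234, 2202 and 2668 in w+ and 2439, 2675, 2496, 2336 and 2589 in w-, a difference of 0.11 ± 0.07 (SE, adjusted p = 0.30). In each sex 1 high w+ library lies within the w- range.

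The membrane SNARE Syx1A measured 304, 376, 325, 333 and 332 CPM in w+ males and 363, 356, 365, 361 and 378 in w- males (log2 difference 0.12 ± 0.05, SE, adjusted p = 0.18). In females it measured 290.1, 285, 287, 273 and 349.9 in w+ and 296, 313, 356, 352 and 364 in w- (0.18 ± 0.06, SE, adjusted p = 0.10). As in cpx, w+ males replicate 2 and w+ females replicate 5 were the w+ samples that reached the w- values. The exons of Syx1A overlap those of eIF4EHP on the same strand over 10.7% of their length, where reads were not counted.

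Next came the transporters that load acetylcholine and glutamate into vesicles. VAChT measured 309, 370.3, 306, 307 and 331 CPM in w+ males and 343, 341, 330.3, 340.3 and 369 in w- males. Its female values were 249.9, 253, 279.8, 271 and 309 in w+ females and 282, 302, 298, 284 and 325 in w- females. Its log2 differences were 0.08 in males and 0.14 in females, with adjusted p of 0.35 and 0.090. VGlut measured 186, 218, 177, 173 and 187 CPM in w+ males and 193, 195, 184, 203 and 199 in w- males. Its female values were 158, 156, 174, 152 and 191 in w+ females and 175, 191, 174, 167 and 194 in w- females. Its differences were 0.05 and 0.12, with adjusted p of 0.65 and 0.15. Of the GABA genes, Gad1 was at -0.08 in males and -0.09 in females, and VGAT at -0.00051 and 0.01, and none of these 4 transmitter genes was called in either sex. No test compared them with each other.

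Of the other nicotinic subunits, nAChRalpha5 measured 258, 310.3, 259.5, 251 and 264 CPM in w+ males and 295, 280.3, 288, 278 and 280.5 in w- males. In females it measured 216, 229, 216, 198 and 248 in w+ females and 225, 233, 257, 228 and 255 in w- females. Its log2 differences were 0.08 and 0.12, with adjusted p of 0.41 and 0.14. nAChRalpha1 measured 146, 170.2, 138, 145 and 150.3 CPM in w+ males and 155, 156, 162, 152 and 161 in w- males. In females it measured 117, 120.0, 113, 119 and 139.6 in w+ females and 119, 123, 139, 134 and 143 in w- females. Its differences were 0.07 and 0.11, with adjusted p of 0.48 and 0.16. In both genes the groups overlap, in males through replicate 2 of the w+ flies alone.

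The male count depended on replicate number 2. Without replicate 2 of the w+ males, 9 of 37 were called, all higher in w-. Of the 11151 genes then tested, 604 (5.42%) were called higher and 920 lower. The block then gives replicate 2 of the w- males no weight, so this nearly repeats the fit without replicate number 2, which also called 9. It cannot assign the change to either library. Replicate 2 of the w- males was the lowest of its 5 for 15 of the 37. The 9 were nAChRalpha6, nAChRalpha5, nAChRbeta1, cpx, Syx1A, unc-13, brp, Rim and VAChT, and the median log2 difference of the 37 was 0.11. Among the genes described above, the male difference moved by over 1.5 times for Nlg3, to 0.17, VAChT, to 0.13, nAChRalpha5, to 0.14, nAChRalpha1, to 0.12, and VGlut, to 0.10. Over single replicate numbers left out, VGlut ran from 0.0017 to 0.10 in males. In females the same fits ran from 0.07 to 0.14 for nAChRalpha1, from 0.07 to 0.15 for cpx and from 0.08 to 0.15 for VGlut. Leaving out replicate 2 of the w+ males alone was chosen after the values had been seen. Summed over the 37, the w+ male samples measured 16010.5, 17963, 15688, 15770 and 16139 CPM and the w- male samples 17297, 16848, 17046, 17082 and 17619. In the same order the 6 pan-neuronal markers summed to 3988, 4459, 3858, 3838 and 3869 CPM in w+ males and 4432, 4293, 4406, 4268 and 4487 in w- males, so that replicate 2 was also the high w+ library for genes common to all neurons.

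By role, the median log2 differences in males were 0.07 for vesicle release, 0.07 for the active zone, 0.05 for recycling, 0.01 for transmitter making and loading, 0.04 for adhesion and scaffold and 0.05 for receptors. In females they were 0.09, 0.05, 0.03, 0.01, 0.09 and 0.09. All 10 release genes were above 0 in males and 8 in females, the exceptions being nSyb at -0.04 and comt, the fly NSF, at -0.01. All 9 receptors were above 0 in females and 8 in males, where Nmdar1 was at -0.03. The recycling gene Synj lay close to no difference, at 0.01 in males and -0.01 in females.

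Markers of cell types moved with eye color too. All 6 pan-neuronal markers, among them elav and the sodium channel gene para, were above 0 in both sexes, with a male median of 0.10 and a female median of 0.13, and 0 of 6 were called. Fat body markers were below 0 in 4 of 4 tested, with medians of -0.59 in males and -0.68 in females, and 1 passed the test, AkhR in males at -0.65 (adjusted p = 0.012). Muscle markers were above 0 in w- females in 6 of 6, with 4 called, Mhc, sls, up and Tm2, and a median of 0.32. Their summed level ran from 3692 to 4645 CPM in w+ females and from 4743 to 5390 CPM in w- females. In males 0 of 6 were called, with a median of 0.04. Hemocyte markers had a median of 0.55 in w- females and of 0.05 in w- males. In females 4 of 4 had an unadjusted p under 0.05, 3 of them above 0, against 3455 of 10762 genes, and 0 were called. Photoreceptor markers had a median of 0.14 in w- males, where 1 of 7, Rh4, was called higher, and of -0.03 in w- females. Glial markers had medians of -0.06 in males and 0.03 in females, with 0 of 7 called. The part of these shifts in the synapse gene values was not tested.

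**Figure D3:**
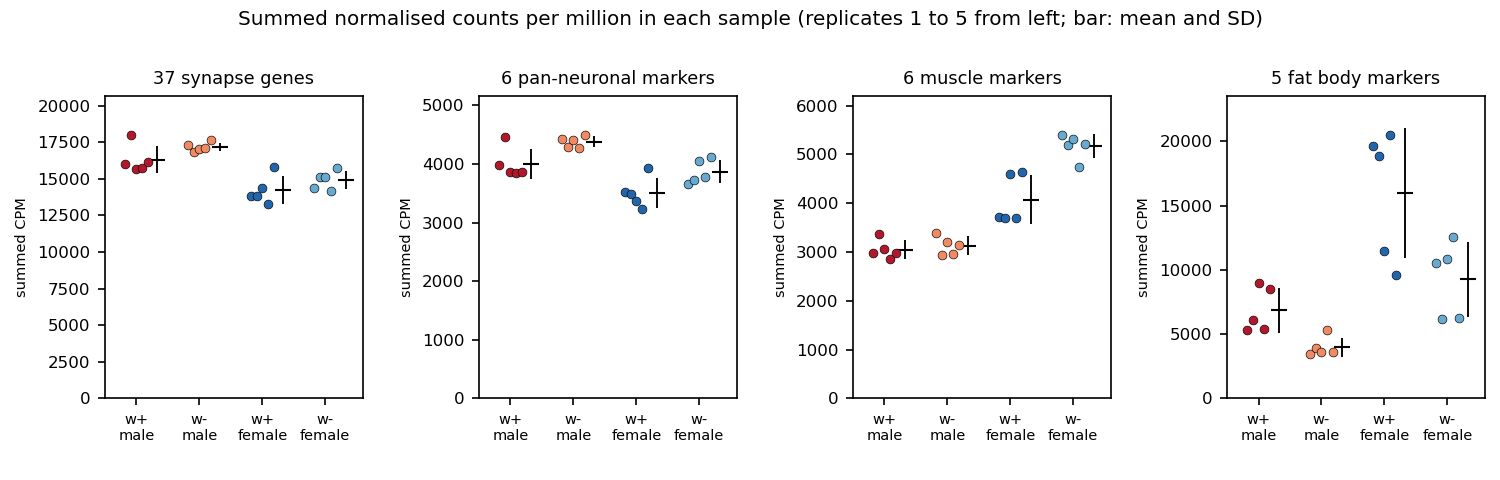
Summed level in each sample (CPM) of the 37 synapse genes and of pan-neuronal, muscle and fat body markers, with the mean and SD of 5 samples. Replicate 2 of the w+ males and replicate 5 of the w+ females are high for synapse genes and for pan-neuronal markers, and muscle markers are highest in w- females, at 4743 to 5390 CPM.

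The difference between the sexes in the effect of eye color was tested directly, as an interaction. In this test 0 of 37 were called by edgeR and 0 by DESeq2, against 0.0263% of 11423 genes by edgeR. Of the 11423 genes, 689 had an unadjusted edgeR p under 0.05, and 1 of these was a member. That gene was Nlg1 (FBgn0051146, chromosome 3R, 7658247 to 7694874), a neuroligin that acts in muscle at the larval neuromuscular junction. It measured 14.0, 16.3, 12.6, 11.6 and 11.8 CPM in w+ males and 13.4, 12.9, 14.4, 11.4 and 9.82 in w- males. In females it measured 13.2, 15.9, 17.7, 12.6 and 13.9 in w+ and 20.1, 18.6, 18.8, 11.7 and 15.3 in w-. The log2 difference by eye color was -0.10 in males and 0.19 in females, and the interaction was 0.29 ± 0.13 (SE). Its edgeR p was 0.0495 before and 0.81 after adjustment over all genes. All 6 muscle markers had interactions above 0, with a median of 0.27, and 6 had an unadjusted p under 0.05 while 0 were called, and their part in the Nlg1 values was not tested.

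The second comparison set female heads against male heads, separately in w+ and in w- flies, which share no sample. Most synapse genes were lower in females. In w+ flies 29 of 37 were called lower and 0 higher, against 15.8% lower and 19.7% higher of the 11423 genes tested. In w- flies 27 of 37 were called lower and 1, Nlg1, higher, against 16.7% lower and 18.6% higher. The 2 lists of lower genes shared 26 members, 89.7% of the first list and 96.3% of the second. The median log2 difference was -0.20 in w+ flies, where that of all genes was -0.00025, and -0.19 in w- flies, where that of all genes was -0.01. Every female sample lay below every male sample for 15 of 37 in w+ flies and 26 of 37 in w- flies, against 8.87% and 13.0% of all genes.

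**Figure D4:**
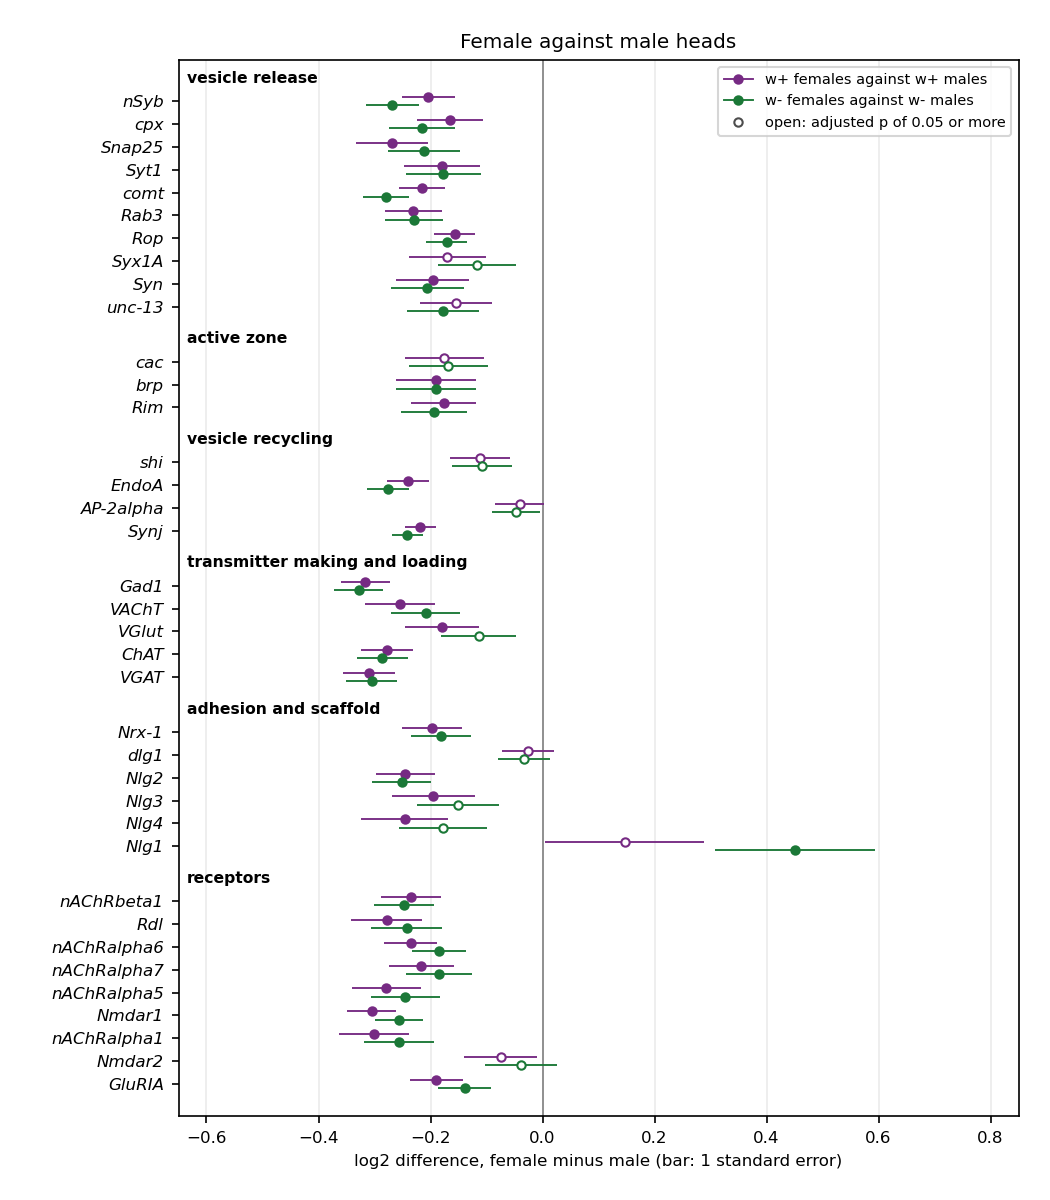
Difference between female and male heads (log2, female minus male, bar 1 standard error, 5 samples against 5) for the 37 synapse genes, by role, in w+ and in w- flies. Filled points passed an adjusted p of 0.05: 29 of 37 were lower in w+ females and 27 of 37 in w- females, and Nlg1 alone lies above 0 in both, though in w+ flies it was at -0.11 with library size alone.

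The GABA genes Gad1 and VGAT had the largest log2 differences of the members called lower, in both eye colors. Gad1 (FBgn0004516, chromosome 3L, 4074077 to 4088744) measured 635, 670.2, 617, 651 and 628 CPM in w+ males and 490.2, 486, 520.3, 499.9 and 574 in w+ females. In w- flies it measured 601, 597, 639, 591 and 604 in males and 467, 495, 492, 485 and 476 in females. Neither pair of groups overlaps. Gad1 fell by 0.32 on the log2 scale in w+ females and by 0.33 in w- females (SE 0.04 in each), with adjusted p of 2.29e-05 and 1.35e-05, a difference of -19.7% and -20.3%.

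VGAT, which fills vesicles with GABA, measured 70.9, 73.7, 65.5, 71.6 and 67.2 CPM in w+ males and 54.3, 53.6, 53.4, 57.8 and 62.3 in w+ females. In w- flies it measured 66.7, 70.8, 71.6, 68.7 and 72.2 in males and 52.7, 58.4, 56.2, 56.0 and 60.0 in females. Again the sexes did not overlap, and the log2 differences were -0.31 in w+ flies and -0.31 in w- flies, with adjusted p of 4.74e-05 and 5.22e-05.

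ChAT measured 131, 139, 123, 125 and 131 CPM in w+ males and 101, 99.7, 107, 109 and 118 in w+ females. In w- flies it measured 124, 132, 136, 129.8 and 135 in males and 105, 106, 105, 109 and 115 in females. The log2 differences were -0.28 and -0.29, with adjusted p of 0.000135 and 9.27e-05, and the sexes did not overlap. VAChT, from the same locus, was lower as well, at -0.25 and -0.21 on the log2 scale (adjusted p = 0.0038 and 0.0135). VGlut was called in w+ flies at -0.18 (adjusted p = 0.043) and not in w- flies at -0.11 (adjusted p = 0.19).

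Nmdar1, the obligatory subunit of NMDA receptors, was the receptor gene with the largest difference in w+ flies. It measured 70.0, 73.5, 66.4, 66.1 and 71.5 CPM in w+ males and 55.0, 55.8, 57.8, 51.7 and 60.9 in w+ females, and 67.5, 66.8, 71.0, 69.0 and 67.5 in w- males against 52.9, 57.5, 57.8, 57.5 and 60.5 in w- females. The log2 differences were -0.30 and -0.26, with adjusted p of 3.08e-05 and 0.000151. Its partner subunit gene Nmdar2 did not pass the test, at -0.07 and -0.04, and measured 74.5 to 91.7 CPM in w+ males, 64.3 to 82.3 in w+ females, 76.8 to 85.6 in w- males and 74.8 to 86.0 in w- females, with the sexes overlapping.

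By role, the members called lower in w+ females were 8 of 10 release genes, 2 of 3 active zone genes and 2 of 4 recycling genes. They were also 5 of 5 transmitter genes, 4 of 6 adhesion and scaffold genes and 8 of 9 receptors. In w- females the counts were 9, 2, 2, 4, 2 and 8. Of all genes 15.8% were called lower in w+ females and 16.7% in w- females. Called or not, 36 of 37 members had a log2 difference below 0 in each eye color. The gene with the smallest fitted standard error was Synj, which clears clathrin coats from vesicles by its phosphatase activity and fell by 0.22 and 0.24 on the log2 scale (SE 0.03 in each), with adjusted p of 1.03e-05 and 2.92e-06. EndoA, its recruiting partner, fell by 0.24 and 0.28. The members called in neither contrast were AP-2alpha at -0.04 and -0.05, dlg1 at -0.03 in both, shi at -0.11 in both, cac at -0.18 and -0.17, Nmdar2, and Syx1A at -0.17 and -0.12.

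Nlg1 went the other way. From 9.82 to 14.4 CPM in w- males it stood at 11.7 to 20.1 CPM in w- females, a log2 difference of 0.45 ± 0.14 (SE, adjusted p = 0.020), and in w+ flies the difference was 0.15 ± 0.14 (SE, adjusted p = 0.45). In w- flies the sexes overlap through replicate 4 of the females alone, and in w+ flies the ranges overlap as well, with female replicate 3 above every male. Without replicate 2 of the w+ males the w+ difference was 0.23. The w- call was lost without replicate number 1, 2 or 5 and with library size as the only scaling, which also put the w+ difference at -0.11. The 6 muscle markers, called higher in females in both eye colors, moved the same way, and their part in the Nlg1 values was not tested. Nlg1 is the lowest of the 37 genes per exon length and had the largest spread within groups, with coefficients of variation of 14.4% to 20.1%.

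**Figure D5:**
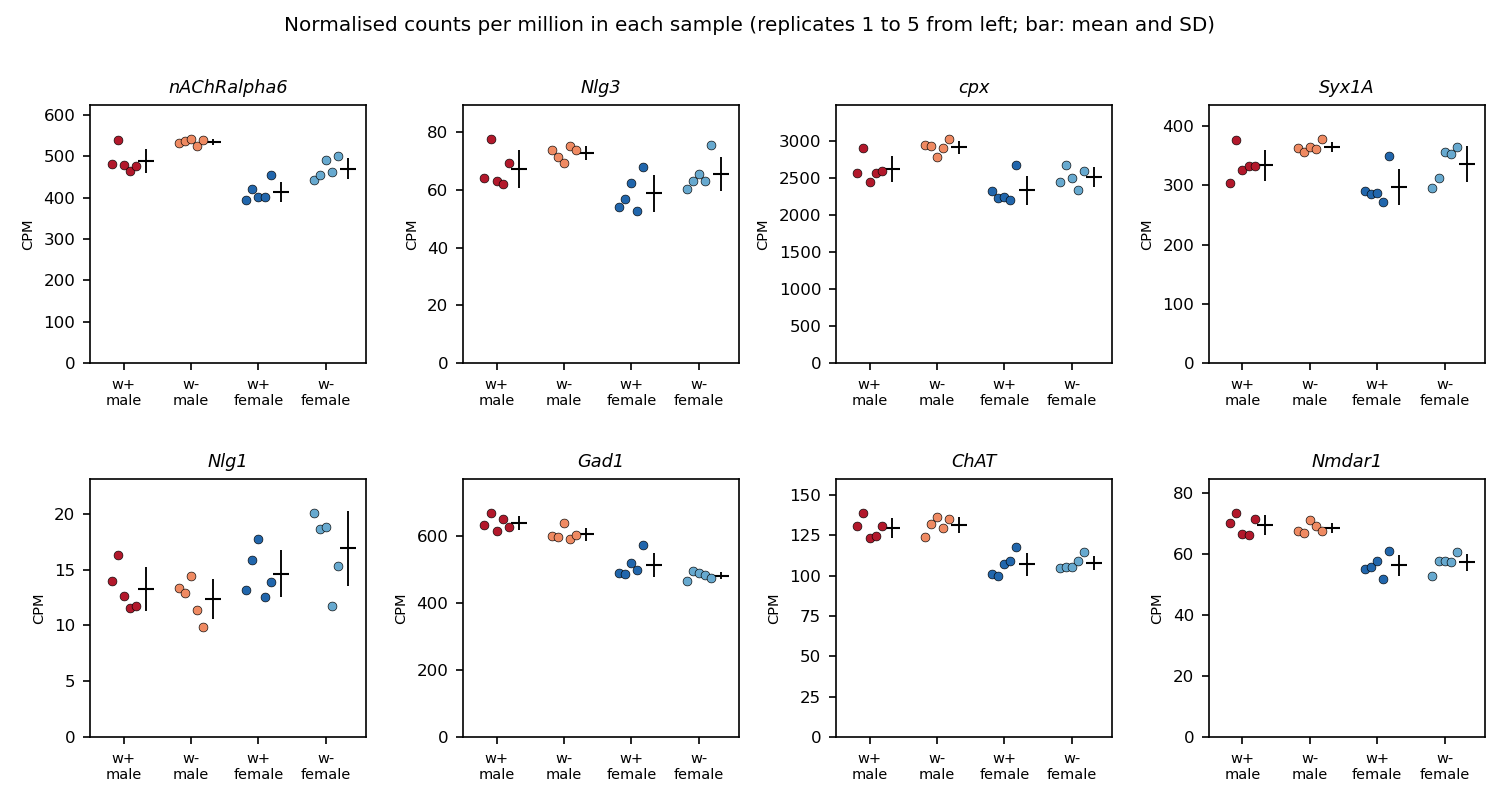
Level in each sample (CPM, axis from 0) of 8 synapse genes in the 4 groups, with the mean and SD of 5 samples. Gad1, ChAT and Nmdar1 are lower in every female sample than in every male sample of the same eye color, while for nAChRalpha6, Nlg3, cpx and Syx1A the w+ and w- samples of a sex overlap.

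Scaling moved these counts together with those of all genes. With library size alone 36 of 37 were called lower in w+ females and 35 in w- females, against 6440 and 4718 of the 11423 genes tested. The median of all genes was then -0.26 and -0.18, and the members lay -0.20 and -0.18 from it, as under TMM. The number called lower in w+ flies was 21 without replicate 2 of the w+ males, against 1602 of 11408 genes. It was 21 without replicate 4 of the w+ females (1474 of 11393 genes) and 33 without replicate 5 of the w+ females (1948 of 11407). It was 18 without replicate number 2 (1170 of 11371), and in w- flies 18 without replicate number 1 (1385 of 11096).

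Markers of muscle, blood cells and fat body differed by sex in the opposite direction. Muscle markers were higher in females in 6 of 6 in both eye colors, with medians of 0.34 in w+ and 0.61 in w-, and hemocyte markers in 4 of 4, with medians of 1.07 and 1.53. Fat body markers were called higher in 3 of the 4 that passed the filter on low counts, with medians of 0.82 and 0.76. The summed level of 5 fat body genes was 5284 to 8951 CPM in w+ males and 9599 to 20458 CPM in w+ females, and 3418 to 5290 CPM in w- males and 6179 to 12551 CPM in w- females. Glial markers had medians of -0.16 in w+ and -0.10 in w- flies, with 2 of 7 called lower and 1 higher in each. Of the 6 pan-neuronal markers 3 were called lower in each eye color, with medians of -0.18 and -0.17, while elav, a standard neuronal marker, was at 0.00 and 0.05. The RNA-binding protein gene fne and the transcription factor gene scrt were called in both. Photoreceptor markers were called lower in 1 and higher in 1 of 7 in w+ females, and lower in 4 of 7 in w- females. How much of the lower synapse gene values goes with these tissue shifts was not tested.

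Ratios of genes within a library depend on no scaling between samples, and of 12 ratios or shares computed per exon length 7 are described here, without a test. The ratio of VGAT to Gad1 was 0.149 ± 0.003 for red-eyed and 0.158 ± 0.005 for white-eyed males, and 0.150 ± 0.006 for red-eyed and 0.160 ± 0.007 for white-eyed females (SD, n = 5). In the same order, that of brp to Rim was 1.14 ± 0.02, 1.16 ± 0.03, 1.13 ± 0.05 and 1.17 ± 0.02. The ratio of Nmdar2 to Nmdar1 was 0.592 ± 0.037 and 0.619 ± 0.032 in males and 0.694 ± 0.031 and 0.720 ± 0.040 in females, overlapping between the sexes in w+ flies and not in w- flies. That of nSyb to Syx1A was 4.82 ± 0.34 in w+ females and 4.13 ± 0.34 in w- females, with overlap, and 4.94 ± 0.41 and 4.56 ± 0.08 in males. Of the 3 vesicular transporters, VAChT made up 43.5% to 44.7% of their summed level, VGlut 31.4% to 33.3% and VGAT 22.2% to 24.8% as group means.

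The members also moved together from sample to sample. After each group's mean was taken out, the correlation of log2 CPM over the 20 samples had a median of 0.62 over 666 pairs of members, and 653 pairs were above 0. The points share their library and its scaling, and the same high and low libraries. No other set of genes was correlated in this way, so the median is not shown to be particular to synapse genes. Rim had the highest median correlation with the others at 0.80 and Nlg1 the lowest at 0.21, below Rop, the syntaxin-binding SM protein gene, at 0.22. The median coefficient of variation within a group was 6.68% for red-eyed and 3.08% for white-eyed males, and 8.20% for red-eyed and 5.27% for white-eyed females. Without replicate 2 the w+ male median was 3.09%, next to the 3.08% of the w- males, and the w+ female median was 6.77% without replicate 4 and 5.09% without replicate 5.

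Position on the X chromosome bears on the design, since w itself is at 2790599 to 2796466 there and Harwich sequence may flank it. Of the 39 genes 8 lie on the X. Nmdar2 is the nearest to w at 1.28 Mb, followed by dlg1 at 8.57 Mb, cac at 9.135 Mb, comt at 10.5 Mb, shi at 13.1 Mb, nAChRalpha7 at 16.5 Mb and the stnA and stnB locus at 20.2 Mb. None of the 6 that had reads was called by eye color in edgeR's test in either sex. Of all genes tested, 12.7% were called in males and 9.23% in females, so the lack of a call does not set these 6 apart. Nmdar2 was at 0.04 in males and 0.08 in females, with adjusted p of 0.78 and 0.23.

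stnA and stnB, which encode endocytic proteins from a single dicistronic transcript, cannot be judged from these counts. In the annotation their exons cover the same 8332 bp on the same strand, 100% of each, and a read that fits both genes is counted for neither, so their 0 says nothing of their expression. The exons of Syn, VGlut and unc-13 overlap genes on the opposite strand, over 4.29%, 0.682% and up to 15.6% of their length. The counts used are those of 1 strand, so such reads should not be shared.

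A wider list of 78 synapse genes, of which 77 were found and 76 tested, gives the setting. White-eyed males had 4 called higher and 3 lower, white-eyed females 7 higher and 0 lower, against 12.7% of all genes called in males and 9.23% in females, with median log2 differences of 0.06 and 0.08. The largest calls higher in males were Grd, a GABA receptor-like subunit gene, at 0.36 (adjusted p = 0.0095), trn, a leucine-rich repeat adhesion gene, at 0.25 and Rph, a Rab-binding vesicle gene, at 0.21. Those lower in males were DIP-alpha, an immunoglobulin adhesion gene, at -0.47, the scaffold gene homer at -0.32 and GluRIIA, a glutamate receptor subunit gene of muscle, at -0.21. In females the largest were trn at 0.34, GluRIID at 0.28, and the adhesion gene Fas2 and Rph at 0.25 each. Of these named genes DIP-alpha, Fas2 and Rph lie on the X, starting at 3507245, 4132887 and 10749077, and the others on autosomes. DIP-alpha is nearer to w than Nmdar2 is. The part of flanking Harwich sequence in these values was not tested. trn measured 29.1 ± 1.3 CPM in w+ males and 34.7 ± 1.6 in w- males, and 26.7 ± 1.7 in w+ females and 33.8 ± 1.6 in w- females (SD, n = 5), with adjusted p of 0.0061 and 0.010. By sex, 39 of the 76 were called lower and 5 higher in w+ females, and 36 lower and 9 higher in w- females. The medians of the 76 were -0.15 and -0.16. Of all genes 15.8% were called lower and 19.7% higher in w+ females, and 16.7% lower and 18.6% higher in w- females.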

How the data were processed

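The 20 samples were pools of 10 heads each. Per the labels and methods, the authors trimmed paired reads with Trim Galore (version 0.6.1, quality and length 20), aligned them with STAR (version 2.5.4b) to release 6.60 of the D. melanogaster genome, and deposited the raw count per gene on 1 strand from a stranded mRNA kit. From these counts, genes were kept that reached 10 counts in 3 or more of all samples and, for eye color, in 3 or more of the sex's samples, and were tested with edgeR (version 4.0.16, R version 4.3.3) by robust quasi-likelihood with TMM scaling. The eye color fits held the replicate number as a block, as the study's code did. The interaction fit held each pair of a sex and number as a block, and the sex fits used 4 group means. P-values were adjusted by Benjamini-Hochberg over all genes tested, and a gene was called at 0.05. DESeq2 (version 1.42.0), other scalings, other filters and left-out replicates were alternatives. The scripts were tested on simulated data. Exon lengths and positions came from an Ensembl annotation of the same release 6 assembly, in which 17597 of 17609 genes were matched. The members and lists were chosen with earlier results of these data known. Every sample's values are given for members called by eye color, with the next smallest p up to 8, for members with an interaction p under 0.05, and for the 4 with the largest sex difference called in both eye colors. Of the wider list, the 3 largest calls in each direction are named. Depth limits no member: the lowest count of a counted member was 386.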

Additional observations from a re-analysis of the deposited data

Results flagged for a closer look

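In 17 of 148 groups of 5 samples, 1 per gene and group, the highest or lowest sample stood apart from its neighbour by more than 0.71 of the group's range, Dixon's 95% critical value. Chance gives about 1 in 20 such groups, and the genes share their libraries, so these are not independent events.

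Replicate 2 of the w+ males stood high for 9 genes. It measured 1333 CPM for the calcium sensor Syt1, 476.2 for brp, 485.6 for cac and 437.6 for Rim. Among receptor genes it measured 1126 for Rdl, 310.3 for nAChRalpha5, 539.1 for nAChRalpha6, 534.1 for nAChRbeta1 and 91.71 for Nmdar2. All 3 active zone genes are among them.

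Replicate 5 of the w+ females stood high for 5 genes, with 349.9 CPM for Syx1A, 2668 for cpx, 358.7 for comt, 943 for Rdl and 139.6 for nAChRalpha1. Replicate 4 of the w+ females stood low for the neuroligins Nlg2, at 87.89 CPM, and Nlg4, at 25.56. Replicate 3 of the w- males stood high for Gad1, at 639.3 CPM.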

How the results depend on the processing

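Without the replicate block the members called by eye color were 0 in males and 0 in females, and all genes called were 1737 and 659. Same-numbered samples deviated together with a mean correlation of 0.273 (males) and -0.116 (females), against -0.046 and 0.046 for other numbers. The correlation was above 0.1 in 4 of 5 male and 2 of 5 female pairs, and 3 and 0 correlated best with their own number. Most male pairs thus lean to a pairing, while the female pairs as a set do not. The 2 members called by eye color, both in females, were called only in fits that held the block. With the block across all 20 samples the sex counts were 32 lower in w+ flies, and 29 lower and 1 higher in w- flies. Of all 11423 genes 1967 and 2151 were then called lower, and 2332 and 2254 higher. In males DESeq2 called 1 member and library size alone 3, and of all genes 1360 and 1776. In females DESeq2 called 2 members, library size alone 11 and all genes with at least 1 count 0. Of all genes in females DESeq2 called 1704 and library size alone 2215. With single replicates left out, members called ranged from 0 to 9 in males, from 0 to 0 in females, from 18 to 33 by sex in w+ flies and from 18 to 28 in w- flies, and all genes called from 714 to 1526 in males and from 82 to 1121 in females. Leaving out replicate number 2 gave the 9 in males. The added settings, chosen after seeing the data, gave 9 without replicate 2 of the w+ males and 0 without replicate 4 or 5 of the w+ females, where all genes called were 82 and 1125. With the block, a w- library left without its w+ partner has no weight, so these settings nearly repeat those without the replicate number. Library size alone moved the share of lower calls among all genes from 63.5% to 40.7% by eye color in males, from 48.8% to 16.9% in females, from 44.4% to 90.0% by sex in w+ flies and from 47.4% to 81.8% in w- flies, and turned Nlg1 by sex in w+ flies to -0.11. For named genes 281 values kept their side of the threshold and their direction, 22 lost a call and 18 gained one. The causes were not tested. A w+ allele of 1 donor strain, pools of heads and whole-head RNA limit what the values can be assigned to.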
